A study of Homo sapiens with 34 samples.

Results

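The genes described here are 9 markers of neuroendocrine cells, CHGA, CHGB, SCG2, SYP, SYT1, NCAM1, ENO2, INSM1 and NEUROD1, of 19970 protein-coding genes on the autosomes and the X chromosome. They were chosen by symbol as neuroendocrine markers, by a rule that used no measured value, though earlier results of these data were known. Each was read as the gene with 2 kb on each side. Histone H3K9 methylation was mapped by CUT&Tag, a method where transposase tethered to a bound antibody cuts and tags nearby chromatin. The label of the rabbit anti-H3K9me antibody does not give the degree of methylation. Each of 34 libraries came from 50000 nuclei and gave 1 list of peaks, the stretches where cut fragments pile up above the local background.

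Both cell lines are established cancer lines. PC3 DM is labelled a prostatic adenocarcinoma and COLO320 DM a colorectal adenocarcinoma, and COLO320 is known for neuroendocrine features. All cells were transfected with 700 ng of plasmid for guide RNA and collected 3 days later. In PC3 DM there were 2 vector libraries, 3 each for the ecSE1, ecSE2, ecSE6 and ecSEcombo perturbations, and 2 for ecSE7. In COLO320 DM there were 3 libraries each for vector, ecSE1, ecSE2, ecSE3, ecSE4 and ecSEcombo. The labels name no effector protein, do not say what the combination holds, and do not say that a numbered ecSE is the same element in both lines. The lines were grown in different media and transfected with different lipofectamine reagents, and their peak names carry different run prefixes, so that line, reagent and run cannot be told apart. The lists held 25454 ± 25519 peaks in COLO320 DM (SD, n = 18; 9385 to 125214) and 36008 ± 23610 in PC3 DM (SD, n = 16; 10288 to 102290), and 1 list in each line, COLO320 DM ecSE1 replicate 2 and PC3 DM ecSEcombo replicate 1, held over 100000. Read totals were not used, so depth is unknown, and peak lists hold no expression, so the neuroendocrine state of either line could not be checked here.

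Neuroendocrine cells store peptide hormones and amines in dense-core granules and release them when calcium enters. Chromogranins A and B (CHGA, CHGB) and secretogranin II (SCG2) are acidic proteins of the granule core. Synaptophysin (SYP) spans the membrane of small vesicles, and synaptotagmin 1 (SYT1) is the calcium sensor that triggers fusion of vesicles with the plasma membrane. NCAM1, also called CD56, is an adhesion molecule of the cell surface, and ENO2 is the neuronal form of the glycolytic enzyme enolase. INSM1 and NEUROD1 are transcription factors that drive endocrine and neuronal differentiation, and outside these lineages several such genes are held silent by the repressor REST. Methylated H3K9 is in general associated with silent chromatin in its di- and trimethylated forms.

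RefSeq promoter sequences on GRCh38.p14 were matched for 5 of the 9 genes (CHGA, SYP, NEUROD1, ENO2 and SYT1). The 250 bases before the annotated start site are printed for 3 of them, 5′ to 3′ on the strand of the gene, because a peak, or a sequence element searched for, falls there. In NEUROD1, at chr2:181680518-181680767 on the minus strand, the capitals mark the 189 bases covered by a peak of PC3 DM ecSE1 replicate 1. In CHGA, at chr14:92922900-92923149 on the plus strand, they mark the cyclic AMP response element TGACGTCA. In SYT1, at chr12:78864524-78864773 on the plus strand, they mark the reverse complement of GGACAG, the right part of RE1, the element bound by REST.
NEUROD1: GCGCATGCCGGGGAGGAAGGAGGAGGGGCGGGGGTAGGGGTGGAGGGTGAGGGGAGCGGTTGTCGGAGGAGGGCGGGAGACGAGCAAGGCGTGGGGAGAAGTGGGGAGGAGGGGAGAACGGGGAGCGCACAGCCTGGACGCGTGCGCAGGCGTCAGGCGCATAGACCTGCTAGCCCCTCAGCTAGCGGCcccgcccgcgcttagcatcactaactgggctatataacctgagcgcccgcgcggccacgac
CHGA: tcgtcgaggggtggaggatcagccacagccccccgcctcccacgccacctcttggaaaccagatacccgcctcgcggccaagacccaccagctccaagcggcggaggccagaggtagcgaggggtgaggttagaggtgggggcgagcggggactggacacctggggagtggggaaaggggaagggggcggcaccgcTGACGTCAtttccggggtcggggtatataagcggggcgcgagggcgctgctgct
SYT1: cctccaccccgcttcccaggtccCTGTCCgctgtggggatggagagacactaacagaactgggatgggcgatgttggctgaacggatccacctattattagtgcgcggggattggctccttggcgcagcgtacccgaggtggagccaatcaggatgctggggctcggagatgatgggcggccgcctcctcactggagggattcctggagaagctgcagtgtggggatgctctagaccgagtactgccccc

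The promoter of NEUROD1 was the only 1 of the 5 with a peak over the 300 bases of its table entry, in 1 PC3 DM list and no COLO320 DM list. The summit of that peak lay 314 bp upstream of the start site, with an authors' fold of 6.76 over the local background. Over all 22131 promoter entries of that length a list of COLO320 DM reached 0.194% ± 0.194 (SD, n = 18) and a list of PC3 DM 0.315% ± 0.174 (SD, n = 16), and 93.5% of entries had no peak in any list. The CHGA promoter held TGACGTCA, searched on both strands, once at base -54, and 2.26% of all entries hold it. The SYT1 promoter held GGACAG once at base -227, on the reverse strand, as do 21.1% of all entries on either strand. No promoter of the 5 held TTCAGCACC, the left part of RE1, which is in 0.352% of entries. These matches describe letters in the window and not bound sites.

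Peaks were sparse over most of the 9 genes. A COLO320 DM list had a peak in 1 to 3 of them (median 2) and a PC3 DM list in 2 to 5 (median 2). As a share, 19.8% ± 8.98 of the genes had a peak in a COLO320 DM library (SD, n = 18) and 29.2% ± 11.4 in a PC3 DM library (SD, n = 16). Over all protein-coding genes the shares were 16.6% ± 7.93 and 25.2% ± 8.95. SYT1 and NCAM1, the longest of the 9 at 588.0 and 317.0 kb, held 240 of the 259 peaks, whereas the other 7 genes span 2.85 to 13.8 kb. In 6 of the 9 genes no peak was found in any COLO320 DM list, against 44.3% of all protein-coding genes. For PC3 DM lists it was 2 of 9, against 25.3%.

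**Figure D1:**
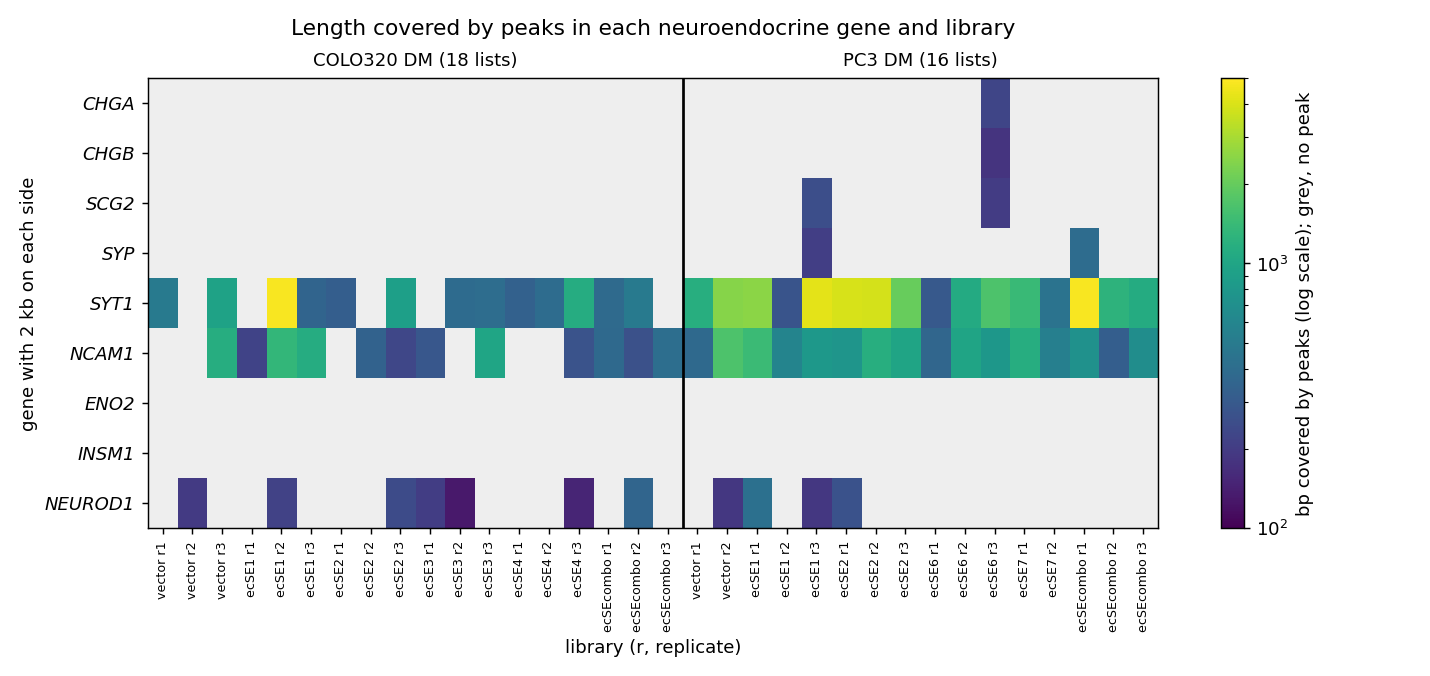
Length in bp covered by peaks (colour, log scale) in each of the 9 genes with 2 kb on each side (rows) and each of the 34 libraries (columns, grouped by line). Grey marks no peak; SYT1 and NCAM1 are filled in all 16 PC3 DM libraries, and the 3 granule genes and SYP only in a few PC3 DM libraries.

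The granule core genes, with short windows of 9.42 to 17.8 kb, had few peaks. CHGA (chr14:92922664-92935285) and CHGB (chr20:5911510-5925353) each had 1 peak in 1 of 34 lists, that of PC3 DM ecSE6 replicate 3. The CHGA peak was 227 bp long with a fold of 7.56, and its summit lay 67 bp outside the lower gene end and 553 bp upstream of the start site of the printed promoter. The CHGA window also overlaps ITPK1. The CHGB peak was 180 bp long with a fold of 4.97, equal to the median of its list, and lay 1254 bp outside the lower gene end. SCG2 (chr2:223596940-223602361) had 1 peak each in PC3 DM ecSE1 replicate 3 and ecSE6 replicate 3, with folds of 4.09 and 4.14, at summits 1906 bp apart. None of the 18 COLO320 DM lists had a peak in any of these 3 genes. In PC3 DM covered length per kb was 0.854 ± 3.41 bp for CHGA, 0.630 ± 2.52 bp for CHGB and 3.02 ± 8.32 bp for SCG2 (SD, n = 16). In PC3 DM the mean of the values of single protein-coding genes, each counted once whatever its length, was 2.08 bp per kb. SCG2 was also divided by the covered length per kb over all protein-coding genes of the same list, chromosome 8 left out. That ratio was 0.899 ± 2.47 in PC3 DM (SD, n = 16), so its SD exceeded its mean. The lists of PC3 DM ecSE1 replicate 3 and ecSE6 replicate 3 held 58545 and 42953 peaks, above the PC3 DM median of 26527, and were the 2 lists with peaks in 5 of the 9 genes.

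SYP (chrX:49187815-49200193, minus strand) had peaks in 2 libraries. Its covered length in PC3 DM was 2.32 ± 6.68 bp per kb (SD, n = 16), against 2.08 as the mean of the values of single protein-coding genes. Relative to the covered length per kb over all protein-coding genes of the same list, chromosome 8 left out, it was 0.438 ± 1.21 times (SD, n = 16). The 2 lists with a SYP peak held 58545 and 102290 peaks. There were 2 peaks in PC3 DM ecSEcombo replicate 1 and 1 in PC3 DM ecSE1 replicate 3, and none in COLO320 DM. The 2 libraries shared a site inside the gene, with summits 52 bp apart. In ecSEcombo replicate 1 the summit lay 8884 bp downstream of the start site with a fold of 14.7, against a median of 5.61 over its list, and 0.846% of peaks in that list had a higher -log10 q. In ecSE1 replicate 3 it lay 8832 bp downstream with a fold of 8.18, against a list median of 4.93. The other SYP peak lay 508 bp upstream of the start site with a fold of 9.61. The SYP window also overlaps PRICKLE3 and the antisense gene SYP-AS1, and a peak cannot be assigned to 1 of overlapping genes.

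ENO2 (chr12:6914580-6923697) and INSM1 (chr20:20368104-20370949) had no peak in any of the 34 lists. Over all protein-coding genes 20.3% (4047) had none, so 2 of 9, or 22.2%, was near that share. Their windows, 13.1 kb for ENO2 and 6.85 kb for INSM1, offer few bases for a peak to overlap. The ENO2 window overlaps ATN1 and LRRC23.

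NEUROD1 (chr2:181668295-181680517, minus strand) was the only gene with a peak in a larger share of COLO320 DM than of PC3 DM lists, 7 of 18 against 4 of 16. Fisher's exact test, two-sided, gave p = 0.477 and a Benjamini-Hochberg adjusted p = 0.692 over all genes tested. Covered length was 0 bp (lowest), 0 bp (median) and 359 bp (highest) in COLO320 DM, and 0, 0 and 425 bp in PC3 DM. Per kb it was 5.13 ± 7.16 bp (SD, n = 18) and 4.13 ± 7.99 bp (SD, n = 16), so the SDs exceeded the means and the lines overlapped. All 7 COLO320 DM peaks had their summits outside the gene, 4 of them between 1851 and 2294 bp upstream of the start site and 3 between 962 and 1921 bp beyond the other end. The upstream site was in vector replicate 2, ecSE3 replicate 1, ecSE4 replicate 3 and ecSEcombo replicate 2, with folds of 4.99 to 7.27. It runs past the edge of the 2 kb flank, and over its whole span, chr2:181682159-181682942, a peak was found in 6 COLO320 DM lists and 1 PC3 DM list, ecSE2 replicate 1. The 1 kb bin chr2:181682001-181683000 likewise had 6 and 1 lists and was not called (Fisher's exact test, p = 0.0900, adjusted p = 0.260). The site beyond the other end was shared by both lines, with 3 COLO320 DM and 2 PC3 DM lists. In PC3 DM, ecSE1 replicates 1 and 3 held the peaks inside the gene, and ecSE1 replicate 1 the peak in the promoter. With the flanks left out, NEUROD1 had a peak in 0 COLO320 DM and 2 PC3 DM lists, which turns the direction of the difference, as do the vector libraries alone, with 1 of 3 and 1 of 2.

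NCAM1 (chr11:112961420-113278436) had a peak in 12 of 18 COLO320 DM lists and in all 16 PC3 DM lists, a difference of -33.3 percentage points for COLO320 DM minus PC3 DM. Covered length was 0 (lowest), 270 (median) and 1337 bp (highest) in COLO320 DM, and 324, 776 and 1674 bp in PC3 DM. The lines overlapped, and the 6 COLO320 DM lists without a peak held at most 21350 peaks. Per kb, covered length was 1.22 ± 1.39 bp in COLO320 DM (SD, n = 18) and 2.60 ± 1.195 bp in PC3 DM (SD, n = 16), or 0.520 ± 0.520 and 1.16 ± 0.656 times the covered length per kb over all protein-coding genes of the same list, chromosome 8 left out. Fisher's exact test gave p = 0.0198 and an adjusted p = 0.120, which missed the threshold of 0.05. The window also overlaps the antisense genes NCAM1-AS1 and NCAM1-AS2. The 76 peaks were scattered: no place in NCAM1 had summits from more than 3 libraries when summits within 500 bp of each other were joined. The genes whose lists with a peak were most like those of NCAM1 were PUDP, FBXL7 and TRDN, with Jaccard indices over the 34 lists of 0.931, 0.929 and 0.903, and windows of 446.3, 443.6 and 424.6 kb.

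SYT1 (chr12:78863982-79452008, plus strand) had the most peaks, 43 in COLO320 DM and 121 in PC3 DM. It had a peak in 13 of 18 COLO320 DM lists and in all 16 PC3 DM lists, a difference of -27.8 percentage points. Covered length was 0 (lowest), 388 (median) and 4832 bp (highest) in COLO320 DM and 276, 1538 and 4777 bp in PC3 DM. The highest COLO320 DM value came from the longest list, ecSE1 replicate 2, which alone held 24 of the 43 COLO320 DM peaks. Per kb, covered length was 1.07 ± 1.86 bp in COLO320 DM and 3.45 ± 2.49 bp in PC3 DM (SD, n = 18 and 16). Without ecSE1 replicate 2 the COLO320 DM mean was 0.655 bp per kb. Relative to all protein-coding genes of the same list, coverage of SYT1 was 0.358 ± 0.302 times in COLO320 DM, with a range of 0 to 1.08, and 1.17 ± 0.457 times in PC3 DM, with a range of 0.202 to 2.04. The lines overlapped. Outside ecSE1 replicate 2, the highest COLO320 DM ratio was 0.663.

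**Figure D2:**
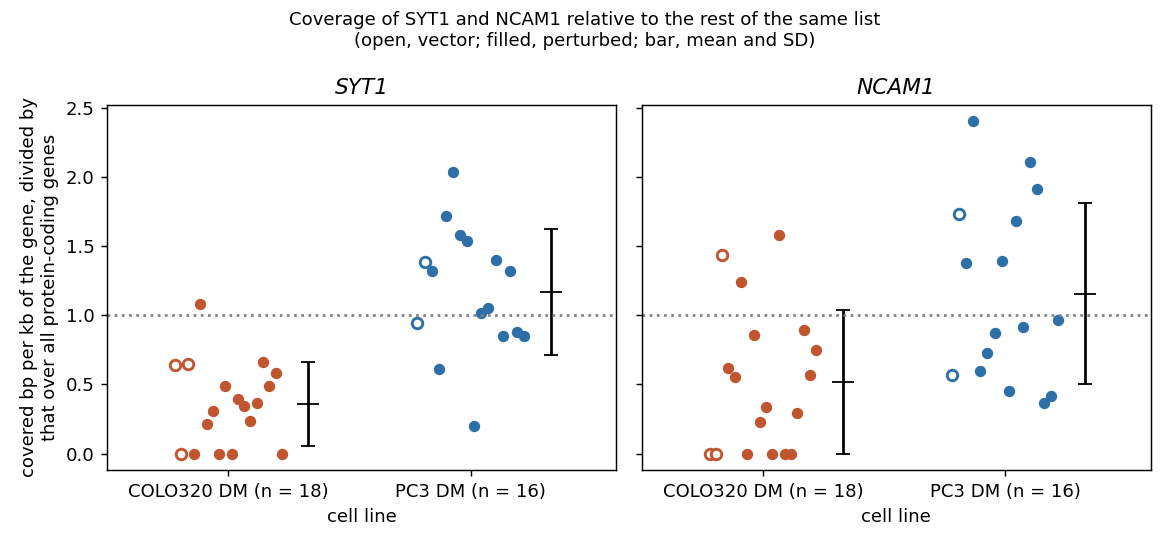
Covered bp per kb of SYT1 (left) and NCAM1 (right) divided by the covered bp per kb over all protein-coding genes without chromosome 8 in the same list, for each library of the 2 lines. Points are libraries (open, vector; filled, perturbed), bars are means with SD, and the dotted line marks a ratio of 1; SYT1 averages 0.358 in COLO320 DM and 1.17 in PC3 DM.

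With the lists as deposited, neither line difference passed the test over all genes. Fisher's exact test for SYT1 gave p = 0.0465 and an adjusted p = 0.178. Of the 9 genes 3 had at least 3 lists with and 3 without a peak and could be tested, SYT1, NCAM1 and NEUROD1, and 0 of 3 were called at an adjusted p of 0.05 or less, with 2 at an unadjusted p under 0.05. Among all 10064 genes tested 704 were called, or 7.00%, of which 578 (5.74%) had the larger share in PC3 DM and 126 (1.25%) in COLO320 DM, and 2624 had an unadjusted p under 0.05. Over the 9 genes the median difference in share was -6.25 percentage points, the same as over all protein-coding genes.

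PC3 DM lists held more peaks on average, and in both lines the longest list held the most SYT1 peaks, 24 in COLO320 DM and 21 in PC3 DM. Among lists of 15000 to 30000 peaks, 13 COLO320 DM lists had 0 to 3 peaks in SYT1 (median 1) and 7 PC3 DM lists had 1 to 6 (median 3). The lists were therefore also compared at equal length, keeping the 9385 best peaks of each by q-value and then fold. SYT1 then had a peak in 5 of 18 COLO320 DM lists and 15 of 16 PC3 DM lists, a difference of -66.0 percentage points, and Fisher's exact test gave p = 0.000108 and an adjusted p = 0.00268. Leaving out each of the 34 libraries in turn kept the adjusted p between 0.00106 and 0.00541. Covered length of SYT1 in these lists was 0.184 ± 0.325 bp per kb in COLO320 DM and 0.975 ± 0.597 in PC3 DM (SD, n = 18 and 16). Equal length kept all of the shortest list but 9385 peaks of a list of 125214, so the lists did not share a q-value cutoff. Other list differences were not removed. As deposited, the median peak length of a list was 344 ± 59.8 bp in COLO320 DM and 264 ± 65.0 bp in PC3 DM (SD, n = 18 and 16).

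The call for SYT1 is to be read against a background that also changed. With equal-length lists 627 of 4711 tested genes, or 13.3%, were called, and 305 of 4711, or 6.47%, with the larger share in PC3 DM. Of the called genes 51.4% had the larger share in COLO320 DM, against 17.9% with the lists as deposited. All protein-coding genes then had a peak in 8.61% ± 0.356 of cases per COLO320 DM library and in 10.4% ± 0.791 per PC3 DM library. NCAM1 had a peak in 5 of 18 and 8 of 16 of these lists (exact test, adjusted p = 0.526) and NEUROD1 in 2 of 18 and 1 of 16 (exact test, adjusted p = 1). CHGA and SYP kept peaks in 1 and 2 PC3 DM lists, and the other 4 genes had none in either line. When peaks had to cover at least 500 bp of a gene's window in sum, with the lists as deposited, NCAM1 and not SYT1 was called. NCAM1 had 4 of 18 against 13 of 16 lists (exact test, adjusted p = 0.0200), and SYT1 had 6 and 13 (exact test, adjusted p = 0.0543). The share of all genes called in that setting is not given here, so this call has no background beside it.

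**Figure D3:**
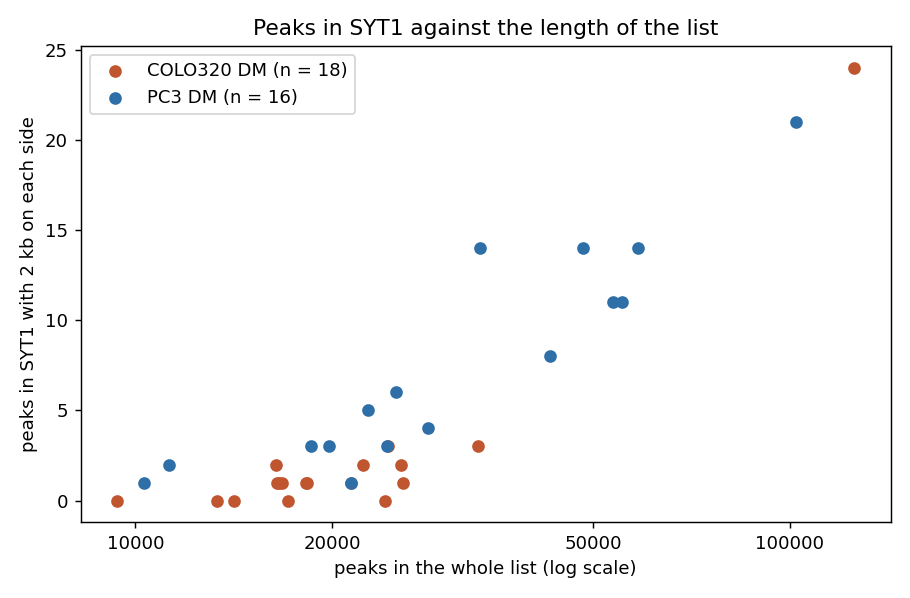
Number of peaks in SYT1 with 2 kb on each side (vertical axis) against the number of peaks in the whole list (horizontal axis, log scale), 1 point per library, 18 of COLO320 DM and 16 of PC3 DM. Between 15000 and 30000 peaks the COLO320 DM lists have 0 to 3 SYT1 peaks and the PC3 DM lists 1 to 6.

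Joining summits within 500 bp gave 198 sites over the 9 genes, 165 of them in 1 library, and 3 sites with summits from 5 or more libraries. The most shared was in SYT1 at chr12:79223095-79223615, 359.1 to 359.6 kb from the lower gene end, with summits from 8 of 18 COLO320 DM lists and 0 of 16 PC3 DM lists. It was in vector replicates 1 and 3, ecSE2 replicates 1 and 3, ecSE3 replicate 2, ecSE4 replicates 2 and 3 and ecSEcombo replicate 2, so vector and perturbed libraries both had it. Folds were 5.21 to 8.37 and peaks 257 to 533 bp long. With equal-length lists 4 of the 5 COLO320 DM lists with a SYT1 peak had a peak at this site. In 4 of the 8 lists it was the only SYT1 peak, and outside ecSE1 replicate 2, which lacked it, 9 of the 19 COLO320 DM peaks in SYT1 lay there. A PC3 DM site with 4 lists and no COLO320 DM list ended 1030 bp below it, at chr12:79221606-79222065, with folds of 4.80 to 10.8. The other recurrent SYT1 site, at chr12:78948423-78949795 and 84.4 to 85.8 kb from the lower gene end, had summits from 7 of 16 PC3 DM lists and 0 of 18 COLO320 DM lists, with folds of 4.80 to 6.37. This site depended on the joining distance: within 1000 bp it spanned chr12:78945860-78950740 with 8 PC3 DM and 2 COLO320 DM lists, and within 250 bp it was not recurrent, whereas the 8-list site was the same at all 3 distances. The third recurrent site was that of NEUROD1 shared by both lines, at chr2:181666374-181667333.

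Tests by position depended on the bin. In 5 kb bins across the genome, 4173 of 120164 tested bins, or 3.47%, were called between the lines. On simulated bins the test recovered 18% of those with a 60-point difference, so an uncalled bin is not shown to be alike in both lines. The 9 genes covered 211 bins, of which 26 were tested and 0 called, with 2 at an unadjusted p under 0.05 by Fisher's exact test. Both were in SYT1, at chr12:78945001-78950000 with 2 COLO320 DM and 8 PC3 DM lists (Fisher's exact test, p = 0.0229, adjusted p = 0.228) and at chr12:79250001-79255000 with 0 and 4 lists (p = 0.0392, adjusted p = 0.245). The bin that holds the 8-list COLO320 DM site also holds the neighbouring PC3 DM site, and had 8 and 4 lists (exact test, adjusted p = 0.621). In 1 kb bins, a width chosen after the 2 sites had been seen, chr12:79223001-79224000 had 8 and 0 lists and was called (Fisher's exact test, p = 0.00312, adjusted p = 0.0352), where 8435 of 93342 tested bins, or 9.04%, were called. The call was lost when any 1 of those 8 COLO320 DM libraries was left out, with adjusted p up to 0.0668, and held in the other 26 of 34 omissions.

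**Figure D4:**
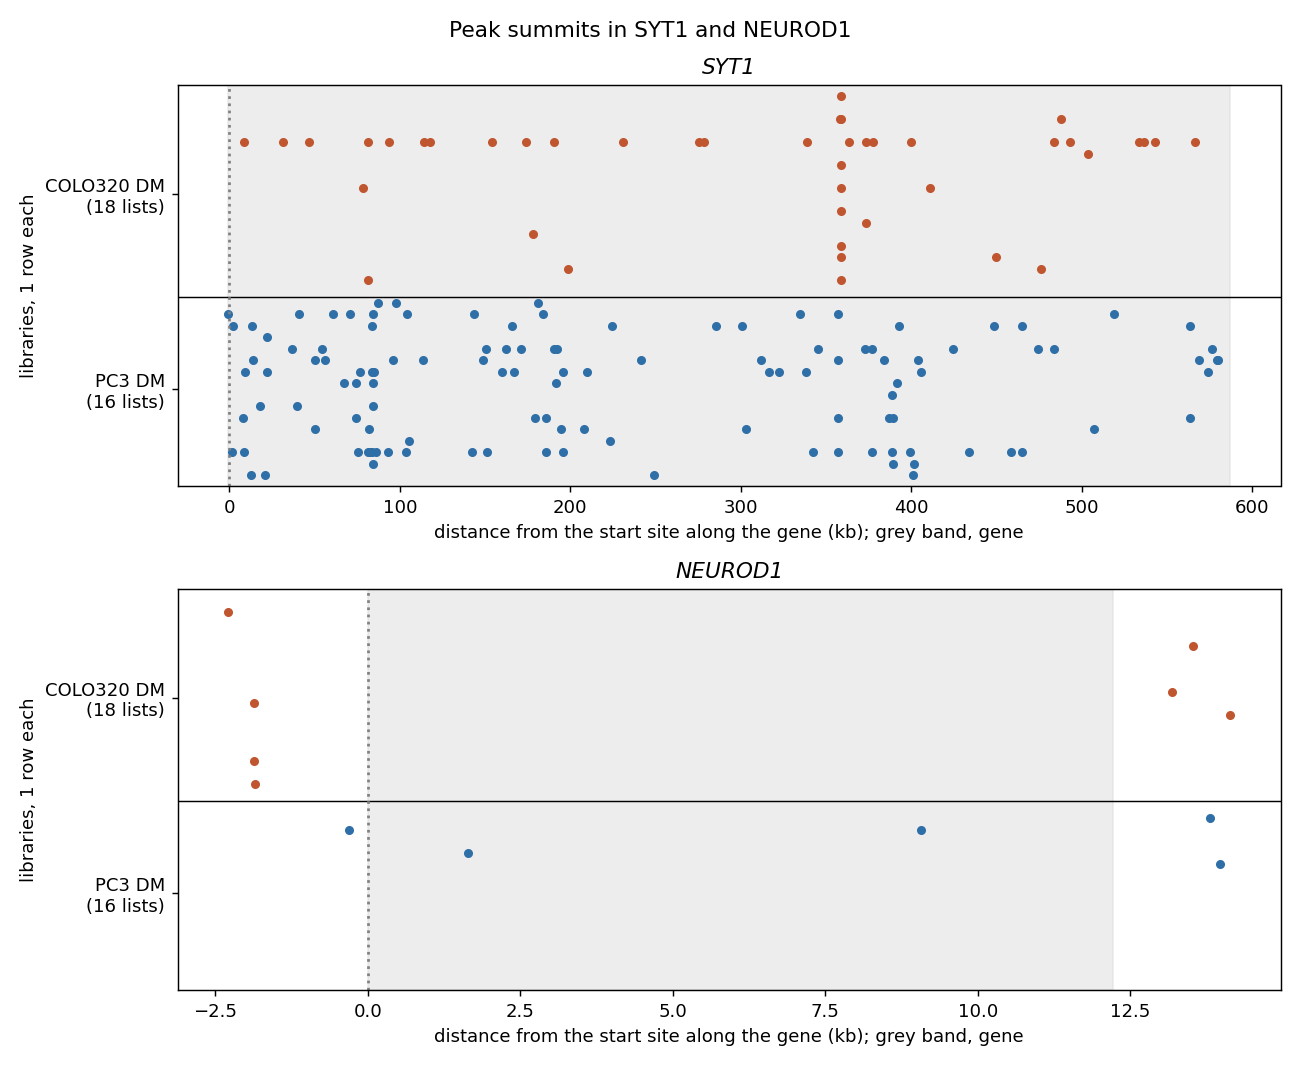
Peak summits in SYT1 (top) and NEUROD1 (bottom), 1 row per library, by distance in kb from the start site along the gene; orange points are COLO320 DM, blue points PC3 DM, and the grey band is the gene. In SYT1 the column of orange points is the site of 8 COLO320 DM lists, and the row with 24 orange points is ecSE1 replicate 2; in NEUROD1 all 7 orange points lie outside the band.

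The design also implies a comparison of perturbed with vector libraries within each line. In COLO320 DM 20.7% ± 9.26 of the 9 genes had a peak in perturbed libraries (SD, n = 15) and 14.8% ± 6.42 in vector libraries (SD, n = 3). In PC3 DM the shares were 29.4% ± 12.0 (SD, n = 14) and 27.8% ± 7.86 (SD, n = 2). The differences were smaller than the SD over libraries. NCAM1 had a peak in 11 of 15 perturbed and 1 of 3 vector libraries of COLO320 DM (Fisher's exact test, p = 0.245, adjusted p = 1), SYT1 in 11 of 15 and 2 of 3 (exact test, adjusted p = 1), and NEUROD1 in 6 of 15 and 1 of 3 (exact test, adjusted p = 1). In PC3 DM, NCAM1 and SYT1 had a peak in every library of both kinds, and NEUROD1 in 3 of 14 and 1 of 2 (exact test, adjusted p = 1). None of the 9 genes was called in either line. Over all genes 0% were called as well, 0 of 4621 for COLO320 DM and 0 of 7811 for PC3 DM, with 49 and 67 at an unadjusted p under 0.05. With 3 and 2 vector libraries the smallest p that the test can give is 0.00123 and 0.00833. Over so many genes a p of that size passes adjustment only where many genes reach it, so a few changed genes could not be called. A count of 0 therefore does not show that the groups are alike.

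Single plasmid groups were given as values, with no test. In PC3 DM covered length of SYT1 was highest in ecSE2, at 3287 ± 1116 bp (SD, n = 3), and lowest in ecSE7, at 926 ± 682 bp (SD, n = 2), with the vector at 1809 ± 919 bp (SD, n = 2). In COLO320 DM it was 488 ± 480 bp in vector libraries (SD, n = 3) and ran from 264 ± 229 bp in ecSE3 to 1729 ± 2693 bp in ecSE1 (SD, n = 3 each), the latter with the list of 125214 peaks. NCAM1 in COLO320 DM ran from 91.3 ± 158 bp in ecSE4 to 897 ± 596 bp in ecSE1, with the vector at 383 ± 663 bp (SD, n = 3 each). In PC3 DM it ran from 576 ± 219 bp in ecSEcombo (SD, n = 3) to 1027 ± 916 bp in vector libraries (SD, n = 2). NEUROD1 had no peak in any of the 8 PC3 DM libraries of ecSE6, ecSE7 and ecSEcombo, and had peaks in 2 of 3 ecSE1, 1 of 3 ecSE2 and 1 of 2 vector libraries.

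A second list of 78 neuroendocrine genes, of other transcription factors, granule and exocytosis proteins, hormones, amine enzymes and transporters, and surface or cytoplasmic proteins, was read in the same way. A peak was found in 12.3% ± 9.10 of them per COLO320 DM library and in 21.7% ± 9.80 per PC3 DM library (SD, n = 18 and 16). Of the 78 genes 34 could be tested and 2 were called, both with the larger share in PC3 DM, against 5.74% of all genes tested in that direction, and 10 had an unadjusted p under 0.05. The median difference over the 78 was -6.25 percentage points, as over all genes. SYN2, a synapsin that tethers synaptic vesicles, was marked by peaks in 6 of 18 lists of COLO320 DM and 16 of 16 of PC3 DM (exact test, adjusted p = 0.00430). PAM, which amidates peptide hormones in granules, had 6 of 18 and 15 of 16 (exact test, adjusted p = 0.0142). With equal-length lists 13 of the 78 could be tested and 2 were called, both with the larger share in PC3 DM, against 6.47% of all genes tested in that direction. SYN2 had 0 of 18 and 11 of 16 (exact test, adjusted p = 0.000558). CADPS, a priming factor of dense-core granules, had 5 of 18 and 16 of 16 (exact test, adjusted p = 0.000433). With the lists as deposited CADPS had a peak in 16 of 18 and 16 of 16 and could not be tested. At equal length PAM had 2 of 18 and 8 of 16 and was no longer called (exact test, adjusted p = 0.112).

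By role, the largest other differences of the second list were again towards PC3 DM, and none passed the test. Among exocytosis genes SNAP25, a SNARE protein of the plasma membrane, had 1 of 18 COLO320 DM and 8 of 16 PC3 DM lists (exact test, adjusted p = 0.0600). Among granule genes SCG3 had 0 and 5 (exact test, adjusted p = 0.0992). Of the transcription factors POU2F3 had 1 and 6 (exact test, adjusted p = 0.157) and RFX6 had 4 and 8 (exact test, adjusted p = 0.339). Of the hormones NTS, neurotensin, had 0 and 4 (exact test, adjusted p = 0.157) and PYY, peptide YY, had 1 and 4 (exact test, adjusted p = 0.339). DDC, which makes dopamine and serotonin from their precursors, had 3 and 9 (exact test, adjusted p = 0.157), and SLC18A2, the vesicular monoamine transporter, had 1 and 4 (exact test, adjusted p = 0.339). Of the surface and cytoplasmic genes ELAVL4 had 4 and 11 (exact test, adjusted p = 0.0992) and DNER had 9 and 14 (exact test, adjusted p = 0.157).

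Lists for the tissues of origin were set beside these. Of 15 prostate genes 15.2% ± 10.9 had a peak per COLO320 DM library and 22.1% ± 13.3 per PC3 DM library, and of 15 intestinal genes 14.8% ± 11.8 and 24.2% ± 12.9 (SD, n = 18 and 16). In each list 9 genes were tested and 0 were called, with 1 and 4 at an unadjusted p under 0.05. With equal-length lists the shares were 6.30% ± 3.60 and 5.42% ± 3.63 for the prostate genes, 5.93% ± 5.55 and 7.50% ± 5.90 for the intestinal genes, 4.27% ± 2.33 and 8.41% ± 2.14 for the 78 neuroendocrine genes and 7.41% ± 5.39 and 18.8% ± 8.81 for the 9. Among the 9, SYT1 had a peak in 5 of 18 and 15 of 16 equal-length lists and NCAM1 in 5 of 18 and 8 of 16. No other of the 9 genes had a peak in more than 2 lists of a line. The gene lists were not matched for gene length. These shares are descriptions, and differences between lists were not tested.

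**Figure D5:**
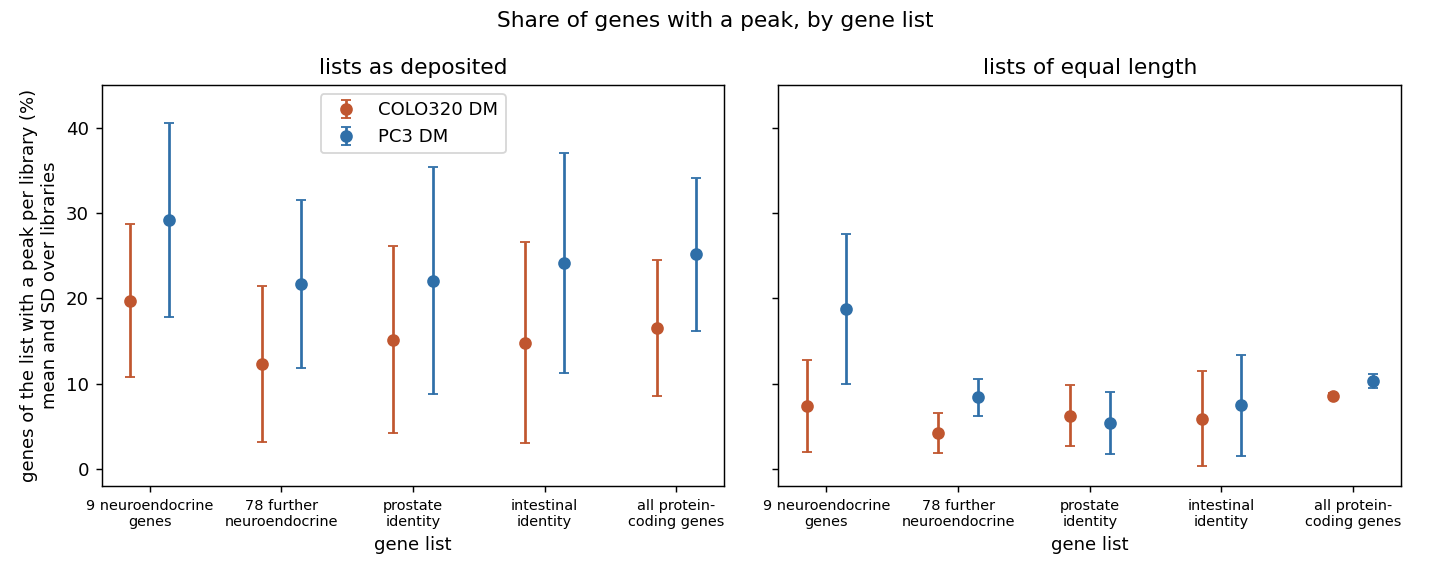
Percentage of the genes of each list with a peak per library, mean and SD over 18 COLO320 DM (orange) and 16 PC3 DM (blue) libraries, with the lists as deposited (left) and at equal length (right). With equal-length lists the 9 neuroendocrine genes stand at 7.41% and 18.8%, and all protein-coding genes at 8.61% and 10.4%. Of the 9, the long genes SYT1 and NCAM1 had a peak in 15 and 8 of the 16 PC3 DM lists, and no other gene in more than 2.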

How the data were processed

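CUT&Tag for H3K9 methylation was analysed from 34 deposited peak lists on hg38, 18 of COLO320 DM and 16 of PC3 DM. The submitters' processing notes name MACS2 2.2.7.1, Bowtie2 2.3.5 and Trim Galore 0.6.6 besides bedtools and SAMtools, without saying what each did. The peak names in the deposited lists carry 1 library each. The names of the lists give an FDR of 0.001 and removal of blacklisted regions. The control library and the treatment of duplicates are not given in the sources used here. Fold enrichment is the authors' ratio of a summit to its local background, and -log10 q is the authors' adjusted p-value of each peak. They ranked and filtered peaks within a list, and folds from different lists are given as each peak's own value, not compared.

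The 9 genes and the other gene lists were chosen with earlier results of these data known. Genes came from RefSeq (GRCh38.p14), in a table without exons. A peak counted where it overlapped a gene with 2 kb on each side by 1 bp. Presence was tested by a two-sided Fisher's exact test on genes or 5 kb bins where 3 or more libraries had a peak and 3 or more had none, with Benjamini-Hochberg adjustment over all tested and a threshold of 0.05. The test was tested on simulated data for 10064 genes, where it recovered 100% of fully separated genes and 47% of those with a 60-point difference, and called 18 of 9864 unchanged genes. Unchanged genes kept each library's own share of genes with a peak, which was lower on average in COLO320 DM. The 18 calls are therefore not a rate for genes alike in both lines. The separated and 60-point genes had the larger share in COLO320 DM, without that library effect. Simulated libraries were drawn independently of each other, with no shared run, reagent or culture. These rates therefore do not show how often the test errs where libraries share such a source. All 9 genes are named, and of the second list every gene called and, per role, the 2 with the largest difference. For NCAM1, which had the largest difference in share, the 3 most alike genes at least 1 Mb away are named. CADPS was named after its values were seen. Sample titles gave the groups. The labels do not state separate cultures for replicates, so the p-values reflect only how these libraries vary, possibly for technical reasons. Alternatives were a q-value of 1e-05, equal-length lists, at least 500 bp of a window covered by peaks in sum, no flanks, 10 kb bins, summits joined within 250 or 1000 bp, a replicate block, vector libraries alone and leaving out libraries. The 5000 best peaks, the omission of the longest lists, 1 kb bins, the whole span of sites at window edges and some omissions were added after seeing the data. Software was scipy 1.17.1, pandas 2.3.3 and numpy 2.4.6, with figures from matplotlib 3.10.9, in Python 3.11.15.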

Additional observations from a re-analysis of the deposited data

How the results depend on the processing

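Of the 9 genes 0 were called between lines with the lists as deposited, and 1 was called with equal-length lists (SYT1; also 1 with each of the 34 libraries left out in turn), when peaks had to cover 500 bp of a window in sum (NCAM1), and with the 5000 best peaks (SYT1, 2 of 18 against 10 of 16 lists, Fisher's exact test, adjusted p = 0.0253). The share of all genes called is not given for the 500 bp and 5000-peak settings, so those calls have no background beside them. The cause was not tested. Bins of the 9 genes called went from 0 to 1 with 1 kb bins, a width chosen after the sites had been seen. At that width 9.04% of all tested bins were called, and the call was lost without any 1 of the 8 COLO320 DM libraries with a peak there. All genes called were 704 and became 464 at a q-value of 1e-05 or less, 209 without the combination, 1136 without the 2 longest lists and 510 to 1491 with each library left out, the highest without COLO320 DM ecSE1 replicate 2. The share of the 9 genes with a peak in COLO320 DM, 19.8%, became 7.41% with equal-length lists and 6.17% when 500 bp had to be covered, the first of which keeps fewer peaks and the second of which counts fewer genes as having one, and 19.0% to 20.3% with each library left out. Recurrent sites numbered 3, and 1 when summits were joined within 250 bp, the COLO320 DM site of SYT1. The NEUROD1 difference between lines, 13.9 points, became -12.5 points without flanks and -16.7 in vector libraries alone. No other of the 9 genes changed sign, though the differences of CHGA, CHGB, SYP and SCG2 became 0 in some settings. Of the prostate genes the share was lower in COLO320 DM with the lists as deposited and higher with equal-length lists, at 6.30% against 5.42%. Whether libraries with the same replicate number share a run or culture is not known. Peak presence was correlated between libraries of different plasmid groups as deviations from the group means, not as presence itself. No same-numbered pair had a correlation over 0.1. Deviations within groups of 2 or 3 libraries depend on each other, so these values cannot show that replicate numbers share no source. In COLO320 DM the correlations ran from -0.0449 to 0.0720 for same-numbered libraries and from -0.0736 to 0.0646 for other pairs. In PC3 DM they ran from -0.0748 to 0.0537 and from -0.0537 to 0.0748. With the replicate number as a block 604 genes and 0 of the 9 genes were called by the exact test, with adjusted p = 0.114 for NCAM1, 0.202 for SYT1 and 0.716 for NEUROD1. Vector libraries alone were not tested between lines, since 5 libraries cannot hold 3 with and 3 without a peak and the smallest p of the exact test is 0.1. They gave shares of 14.8% and 27.8%. In the second list SYN2 and PAM were called with each of the 34 libraries left out (Fisher's exact test, adjusted p up to 0.00620 and 0.0282). Depth is unknown, so a missing mark and too few fragments cannot be told apart.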
